A study of Homo sapiens with 6 samples.

Results

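LNCAROD, LINC01405 and LINC00602 are 3 long non-coding RNAs whose names start with LINC or LNC. They were chosen by their log2 fold changes, out of a table of 35036 genes. The choice took the largest fall and the largest rises among RNAs so named in cells given an siRNA against SFPQ. Each name matched 1 gene of the table, so all 3 were found, among 2242 genes whose names start with LINC or LNC. Since the comparison of the 2 groups described here selected them, their changes are given as a description, with no test.

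The RNA came from U-2OS cells, a human osteosarcoma line, given an siRNA against SFPQ (siSFPQ, 3 libraries) or a control siRNA (siCtrl, 3 libraries), and all 6 libraries were from cells treated with actinomycin D, a DNA-binding inhibitor of transcription. SFPQ is an RNA-binding protein of the nucleus that is found in paraspeckles. The table's total counts ranged from 1298658 to 1599566 in siSFPQ libraries and from 1385532 to 1533974 in siCtrl libraries. The file lists non-coding genes, so these totals are part of each library, and the knockdown could not be checked on SFPQ, which was not analysed here. The table held 1 of 7 bone, 2 of 7 muscle and 1 of 4 immune marker names. The bone marker, RUNX2-AS1, was at 0 in all 6 libraries, so the label of the line could not be checked. The immune marker MIR155HG stood at 0.646 to 2.49 CPM in siSFPQ and at 1.5 to 4.76 CPM in siCtrl. CPM is counts per 1000000 of a library's total over the genes that passed the filter on low counts, after TMM scaling of that total. The labels do not say that libraries came from separate cultures, and the spread between them may be technical.

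Long intergenic RNAs are transcribed from their own promoters, are often spliced and polyadenylated like messenger RNAs, and often stay near the gene that made them. LNCAROD, whose name stands for an activating regulator of DKK1, has been described as acting on that neighbouring gene in breast cancer cells. DKK1 encodes a secreted inhibitor of Wnt signalling. LINC01405 lies beside MYL2, which encodes the regulatory light chain of ventricular myosin, and LINC00602 lies at the upstream end of PDE10A, which encodes a phosphodiesterase of cyclic nucleotides. Actinomycin D blocks new synthesis, so RNA levels under it depend on transcription before and during the drug and on decay, which these data do not separate. In bulk RNA, fewer cells with an RNA and less RNA per cell cannot be told apart.

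The RNA that was lower in siSFPQ was LNCAROD (ENSG00000231131). The table lists it on the minus strand of chromosome 10 from 52445975 to 52755432, a span of 309458 bases with 8376 bases counted as exonic. GENCODE release 29, on GRCh38, draws it as 5 transcripts of 2 to 7 exons with 5 different starts and 2007 exonic bases, fewer than the table counted. Counts were 5, 5 and 4 in siSFPQ libraries, against 52, 49 and 63 in siCtrl libraries. In CPM after TMM scaling of library sizes, this was 3.82, 3.11 and 2.59 in siSFPQ, against 37.1, 33.3 and 47.1 in siCtrl. Every siSFPQ library was below every siCtrl library, and the 9 ratios of a siCtrl to a siSFPQ library ran from 8.72 to 18.2.

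The log2 fold change of LNCAROD was -3.60 ± 0.30 (SE), the lowest of the 6325 genes tested. The pooled level in siSFPQ was 3.14 CPM, with a 95% Poisson interval of 1.72 to 5.26 CPM, and that in siCtrl was 39.0 CPM, with an interval of 33.2 to 45.4 CPM. Such intervals cover counting error alone. The spread between siSFPQ libraries, a coefficient of variation of 19.5%, was smaller than the 46.3% that counts of this size give by sampling alone. With 14 counts in all 3 siSFPQ libraries, what remained of LNCAROD in them was measured with low precision.

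One LNCAROD exon, shared by 3 of the 5 annotated transcripts, is shown because it is the piece most of its annotated forms have in common (chr10:52454586-52454749, minus strand, 164 bases, GENCODE release 29 on GRCh38). Capitals would mark bases in stretches of 30 that also occur in transcripts of another gene, on either strand. There were none in this exon nor in any of the 2005 such stretches of LNCAROD in that release. The release holds 2007 exonic bases of LNCAROD where 8376 were counted, so most of the counted sequence was not searched.
LNCAROD exon: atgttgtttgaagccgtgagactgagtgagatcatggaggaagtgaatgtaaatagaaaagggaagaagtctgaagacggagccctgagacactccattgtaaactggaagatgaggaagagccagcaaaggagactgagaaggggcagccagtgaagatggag

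RefSeq's promoter table for GRCh38.p14 holds 2 LNCAROD starts, each from 250 bases before to 50 after the start. Neither is at the listed upstream end of the gene, and which start the counted RNA came from was not measured. The second of them (chr10:52455223-52455522, minus strand, GC content 44.7%) is shown with a match to the AP-1 motif TGANTCA in capitals, at position -100 from the start. Both strands were searched for the TATA box (TATAAA), the CCAAT box (CCAAT), the GC box (GGGCGG), the AP-1 site (TGANTCA), the cAMP response element (TGACGTCA) and the E-box (CACGTG), with no overlap between matches here, and 7.71% of the 35116 promoters of that length hold a TGANTCA. The other start had none of the 6 motifs and a GC content of 36.0%, against a median of 58.7% over all promoters. A match is a string of letters, not a binding site, and the lack of one speaks of these windows alone.
LNCAROD promoter 2: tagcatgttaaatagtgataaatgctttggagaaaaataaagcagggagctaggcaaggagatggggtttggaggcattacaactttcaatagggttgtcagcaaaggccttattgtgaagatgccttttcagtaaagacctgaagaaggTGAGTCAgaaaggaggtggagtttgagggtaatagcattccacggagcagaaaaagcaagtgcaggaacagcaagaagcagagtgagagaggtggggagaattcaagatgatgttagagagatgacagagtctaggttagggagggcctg

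LINC01405 was higher in siSFPQ, and it was the more abundant of the 2 RNAs with that direction. The table lists ENSG00000185847 on the plus strand of chromosome 12 from 110934267 to 110973868, with 7836 exonic bases over a span of 39602 bases. In the RefSeq gene table the name LINC01405 is a synonym of VHRT. GENCODE release 29 has 4 transcripts of 2 to 3 exons, 1522 exonic bases in all. Counts were 111, 118 and 132 in siSFPQ libraries, against 10, 10 and 15 in siCtrl libraries. In CPM the level was 84.8, 73.5 and 85.3 in siSFPQ, against 7.14, 6.79 and 11.2 in siCtrl. The groups did not overlap, with the 9 ratios of a siSFPQ to a siCtrl library between 6.55 and 12.6.

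The log2 fold change of LINC01405 was 3.27 ± 0.20 (SE), the second highest of all genes tested, and the pooled counts gave a ratio of siSFPQ over siCtrl of 9.73 with a 95% counting interval of 6.87 to 14.2. The spread between libraries was close to what sampling gives, with a coefficient of variation of 8.22% in siSFPQ, where sampling alone gives 9.12%, and of 29.4% in siCtrl, where it gives 29.3%. Of its 1490 stretches of 30 bases in GENCODE release 29, 6 occur in transcripts of other genes, CAPS2, SLC24A4 and AL672032.1. Reads over those stretches may not be unique to the gene. That release holds 1522 exonic bases of LINC01405 where 7836 were counted, so most of the counted sequence was not searched.

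LINC00602 was also higher in siSFPQ, on far fewer reads. The table lists ENSG00000281832 on the plus strand of chromosome 6 from 165987539 to 165989616, where its exonic length and its span are both 2078 bases, and GENCODE release 29 gives it 1 transcript with 1 exon. Counts were 25, 21 and 13 in siSFPQ libraries, against 3, 3 and 1 in siCtrl libraries. In CPM it stood at 19.1, 13.1 and 8.40 in siSFPQ, against 2.14, 2.04 and 0.748 in siCtrl. The groups did not overlap, but the siSFPQ libraries were spread widely, with a coefficient of variation of 39.6% where sampling alone gives 22.6%. LINC00602 passed the filter on low counts, which asks for 6.68 CPM before TMM scaling in 3 libraries, only through its siSFPQ libraries. LNCAROD passed it only through its siCtrl libraries, and LINC01405 reached that level in 3 siSFPQ libraries and in 2 siCtrl libraries.

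The log2 fold change of LINC00602 was 2.93 ± 0.46 (SE), the fifth highest of all genes tested. The 9 ratios of a siSFPQ to a siCtrl library ran from 3.93 to 25.5, and the pooled ratio was 7.95 with a 95% counting interval of 3.63 to 20.6. The width follows from the 7 counts in all 3 siCtrl libraries.

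Although its name places it between genes, LINC00602 overlaps PDE10A in GENCODE release 29. Exons of PDE10A, which is on the minus strand, cover 540 bases of the listed LINC00602 span, 26.0% of its length. Of 2036 stretches of 30 bases in the LINC00602 transcript, 499 occur in transcripts of other genes, all 499 of them in PDE10A. Per the labels the libraries were made with a stranded kit, but whether strand was used in counting is not given, so reads of PDE10A over these bases may be among those of LINC00602, which was not tested. PDE10A itself was not analysed here. The 300 bases around the RefSeq start of LINC00602 (chr6:165987301-165987600, plus strand, GRCh38.p14) are shown with the 72 bases inside PDE10A exons in capitals, to mark where the overlap begins. This window has a GC content of 43.0% and holds 10 CpG pairs, against a median of 14 over all promoters. Of the 6 motifs it holds 1 CCAAT match, at position -86, a motif found in 34.6% of promoters.
LINC00602 promoter: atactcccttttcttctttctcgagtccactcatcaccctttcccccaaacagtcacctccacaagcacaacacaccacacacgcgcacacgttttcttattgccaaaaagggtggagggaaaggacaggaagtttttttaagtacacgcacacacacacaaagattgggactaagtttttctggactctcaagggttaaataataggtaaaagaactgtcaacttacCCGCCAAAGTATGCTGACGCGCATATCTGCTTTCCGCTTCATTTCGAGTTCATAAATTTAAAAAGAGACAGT

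**Figure D1:**
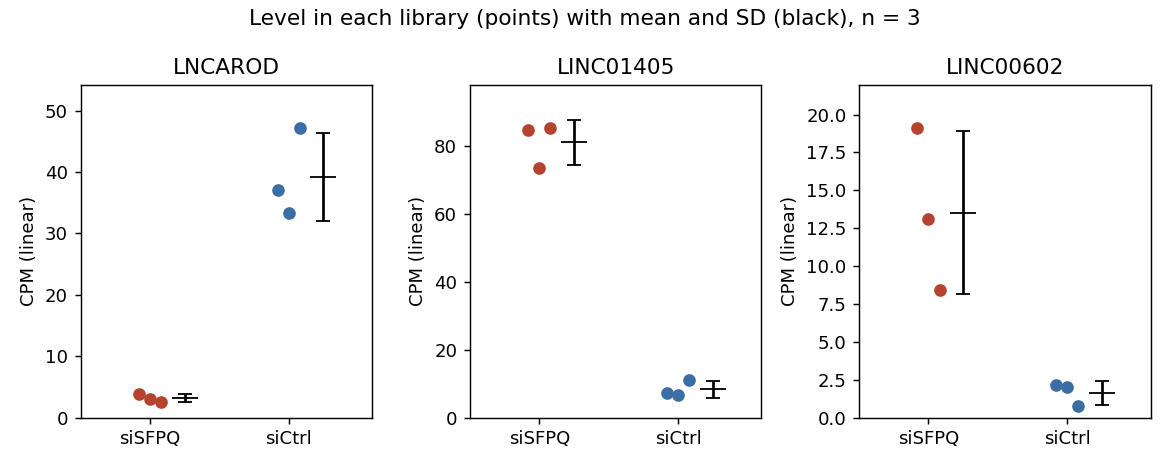
CPM (counts per 1000000 of the TMM-scaled total of the genes past the filter, linear axes starting at 0) of LNCAROD, LINC01405 and LINC00602. Points are each siSFPQ library and each siCtrl library, with the mean and SD beside them in black (n = 3 each). LNCAROD averaged 3.17 CPM in siSFPQ and 39.2 in siCtrl, LINC01405 81.2 in siSFPQ and 8.38 in siCtrl, and LINC00602 13.5 in siSFPQ and 1.64 in siCtrl, with no overlap between groups in any of the 3.

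The ranges of the 2 groups did not overlap for any of the 3 RNAs, as was so for 54.0% of the 6325 genes tested, and nothing is read from it, since the same comparison chose them. Of the tested genes, 1.09% had a log2 fold change of 2 or more in size and 0.0791% of 3 or more. The choice among RNAs named LINC or LNC was clear on the falling side and close on the rising side. After LNCAROD the next largest called fall among genes named LINC or LNC and averaging 5 CPM or more was that of LINC03033, at -1.54 ± 0.16 on the log2 scale, with 24.4 ± 4.69 CPM in siSFPQ and 71.6 ± 11.7 CPM in siCtrl (SD, n = 3). After LINC00602 the next rise was that of LINC02873, at 2.56 ± 0.44, with 13.2 ± 3.90 CPM in siSFPQ and 2.13 ± 0.653 CPM in siCtrl. LINC00602 and LINC02873 differed by less than the SE of either. In all, 396 genes so named were tested, and 123 of them (31.1%) were called higher and 91 (23.0%) lower, beside 24.5% higher and 24.0% lower among all tested genes. Their median log2 fold change was 0.10, beside 0.01 over all tested genes.

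**Figure D2:**
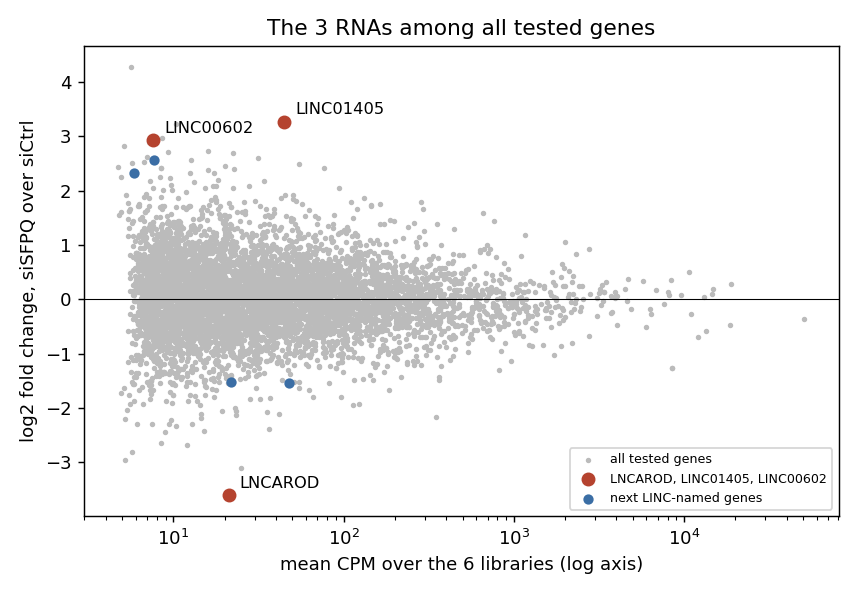
Log2 fold change of siSFPQ over siCtrl against mean CPM over the 6 libraries (log axis) for the 6325 genes tested (grey), with LNCAROD, LINC01405 and LINC00602 in red and the next LINC-named genes in blue. LNCAROD lies at -3.60, below every other gene, LINC01405 at 3.27 and LINC00602 at 2.93, and LINC01405 has the highest mean level of the 3, at 44.8 CPM.

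Per kilobase of listed exonic length, LNCAROD was the highest of the 3 RNAs in siCtrl and the lowest in siSFPQ. Nothing is read from that change of place, since the RNAs were chosen for a fall and for rises. In siSFPQ libraries LINC01405 stood highest with 10.4 ± 0.851 CPM per kilobase (SD, n = 3), LINC00602 followed with 6.51 ± 2.58 and LNCAROD was lowest with 0.379 ± 0.0738. In siCtrl libraries LNCAROD stood highest with 4.68 ± 0.854 CPM per kilobase, followed by LINC01405 with 1.07 ± 0.314 and LINC00602 with 0.790 ± 0.374. LINC01405 and LINC00602 overlapped in siCtrl, so their order there is not set beyond their spread. In siSFPQ the highest LINC00602 library, at 9.19 CPM per kilobase, was just under the lowest LINC01405 library, at 9.38. Among all tested genes, LNCAROD lay at percentile 0.285 of this level in siSFPQ and at percentile 21.1 in siCtrl. LINC01405 lay at 38.9 in siSFPQ and 2.51 in siCtrl and LINC00602 at 27.9 in siSFPQ and 1.49 in siCtrl, so at their higher levels too all 3 were below the median of the genes that passed the filter. These levels rest on the listed lengths, which for LNCAROD and LINC01405 exceed those of GENCODE release 29.

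The genes around the 3 RNAs mostly had few reads or none. The table lists 40 genes within 500 kb of them on the same chromosomes, 11 around LNCAROD, 11 around LINC01405 and 18 around LINC00602. Of these, 19 had no count in any library, 11 had fewer than 10 counts in all libraries together and 10 had at least 10. Only 3 passed the filter on low counts. With edgeR (quasi-likelihood, p adjusted by Benjamini-Hochberg over all 6325 genes), 2 of the 3 were lower in siSFPQ, 0 were higher and 1 was not called, where 48.4% of all tested genes were called, 24.0% lower and 24.5% higher. At an unadjusted p under 0.05, edgeR, DESeq2 and limma-voom each also gave 0 higher and 2 lower. A share of so few genes cannot be set apart from the background.

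Around LNCAROD no gene had enough reads to test. PRKG1-AS1 (chromosome 10, 52167104 to 52315113), antisense to the kinase gene PRKG1 and reaching over the start of DKK1, lies 130.9 kb away on the same strand. It had 0, 3 and 2 counts in siSFPQ libraries, against 4, 3 and 3 in siCtrl libraries. The pooled ratio of siSFPQ over siCtrl was 0.472 with a 95% counting interval of 0.127 to 1.52, which includes no change. ENSG00000296101 lies inside LNCAROD on the other strand and had 2, 1 and 2 counts in siSFPQ libraries, against 2, 3 and 0 in siCtrl libraries. Its sums were 5 in both groups, where those of LNCAROD were 14 in siSFPQ and 164 in siCtrl. Its pooled ratio of siSFPQ over siCtrl was 0.944 with a 95% counting interval of 0.217 to 4.1, too wide to show it unchanged. The remaining 9 genes of this stretch held 1 count or none each. The coding genes within 500 kb are MBL2, 9.9 kb from LNCAROD, DKK1, 127.9 kb away, and PRKG1, 147.6 kb away, and none of them was analysed here.

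Around LINC01405 the genes with many reads were the most distant ones, and they fell. ENSG00000300534 (chromosome 12, 110449845 to 110460430), 473.8 kb away over exons of ARPC3 and GPN3, had 322, 265 and 295 CPM in siSFPQ, against 437, 486 and 439 CPM in siCtrl. Its log2 fold change was -0.63 ± 0.07 (SE; edgeR, adjusted p = 4.1e-20). ENSG00000258210 (110387463 to 110445548), 488.7 kb away over ANAPC7 and ARPC3, had 466, 424 and 477 CPM in siSFPQ, against 542, 575 and 511 CPM in siCtrl. Its log2 fold change was -0.26 ± 0.06 (SE; edgeR, adjusted p = 0.00012). In both genes every siSFPQ library was below every siCtrl library, while LINC01405 was higher in siSFPQ. The groups did not overlap for 54.0% of all tested genes, so this shows nothing particular to the locus. ARPC3 encodes a subunit of the Arp2/3 actin-branching complex, GPN3 a GTPase and ANAPC7 a subunit of the anaphase-promoting complex, and whether their reads were counted for the overlapping non-coding genes was not tested.

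LINC01404 (ENSG00000258240, 110951683 to 110957813) lies within the span of LINC01405 on the other strand. It had 4, 4 and 14 counts in siSFPQ libraries, against 0, 1 and 3 in siCtrl libraries. The siSFPQ counts were all above the siCtrl counts, though the third siSFPQ library held 14 of the 22. The pooled ratio was 5.19 with a 95% counting interval of 1.76 to 20.7, and without a filter on low counts edgeR called it higher (log2 fold change 2.27, adjusted p = 0.011), where 6.87% of 21006 genes were called higher and 13.7% in all. DESeq2 gave it an unadjusted p but no adjusted one. The 2 genes share 0 exonic bases in GENCODE release 29, but the table counts more exonic bases for each than that release does, so whether they shared reads was not tested. LINC02356, 395.2 kb away, had 5, 9 and 6 counts in siSFPQ, against 4, 0 and 3 in siCtrl, and was not called without the filter (edgeR, adjusted p = 0.15). The nearest coding genes, MYL2 at 13.5 kb, CCDC63 at 26.7 kb and CUX2 at 60.2 kb, were not analysed here.

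Around LINC00602, 1 gene was tested. ENSG00000308813 (chromosome 6, 166331776 to 166342883), 342.2 kb away over the vesicle transport gene SFT2D1, had 20.6, 18.1 and 18.8 CPM in siSFPQ, against 14.3, 15.6 and 14.2 CPM in siCtrl. The groups did not overlap, as was so for 54.0% of all tested genes. The gene was not called, with a log2 fold change of 0.37 ± 0.25 (SE, edgeR, adjusted p = 0.22). Among genes under the filter, ENSG00000309148 had 11, 4 and 6 counts in siSFPQ, against 3, 2 and 5 in siCtrl. ENSG00000293174 had 5, 3 and 0 counts in siSFPQ, against 5, 4 and 6 in siCtrl, and ENSG00000286760 had 3, 2 and 2 in siSFPQ, against 4, 5 and 4 in siCtrl. The first was higher in sum in siSFPQ and the other two lower. None of these 3 was called without the filter (edgeR, adjusted p = 0.34 to 0.50). No neighbour of LINC00602 in this window was called with or without the filter.

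The GENCODE release 29 span of PDE10A holds other genes of the table than LINC00602, and the 1 of them with enough reads to test went the other way. Within 500 kb, ENSG00000236627 and ENSG00000223942 had no count in any library. Beyond it, 573.7 kb from LINC00602, ENSG00000300569 (165411391 to 165413883), which overlaps 187 bases of PDE10A exons, had 13, 20 and 19 counts in siSFPQ, against 28, 43 and 25 in siCtrl. Each siSFPQ library was below each siCtrl library, where the groups did not overlap for 54.0% of all tested genes. The log2 fold change was -0.96 ± 0.25 (SE; edgeR, adjusted p = 0.0005), opposite in sign to that of LINC00602 at the upstream end of the same coding gene. Of all tested genes, 24.0% were called lower, so 1 such gene shows nothing particular to the locus. Other tested genes beyond 500 kb lay near LINC01405. MAPKAPK5-AS1, 865.9 kb away, was called higher (0.51, edgeR, adjusted p = 3.1e-07). ATXN2-AS, 625.0 kb away, was not called (0.14, edgeR, adjusted p = 0.67).

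**Figure D3:**
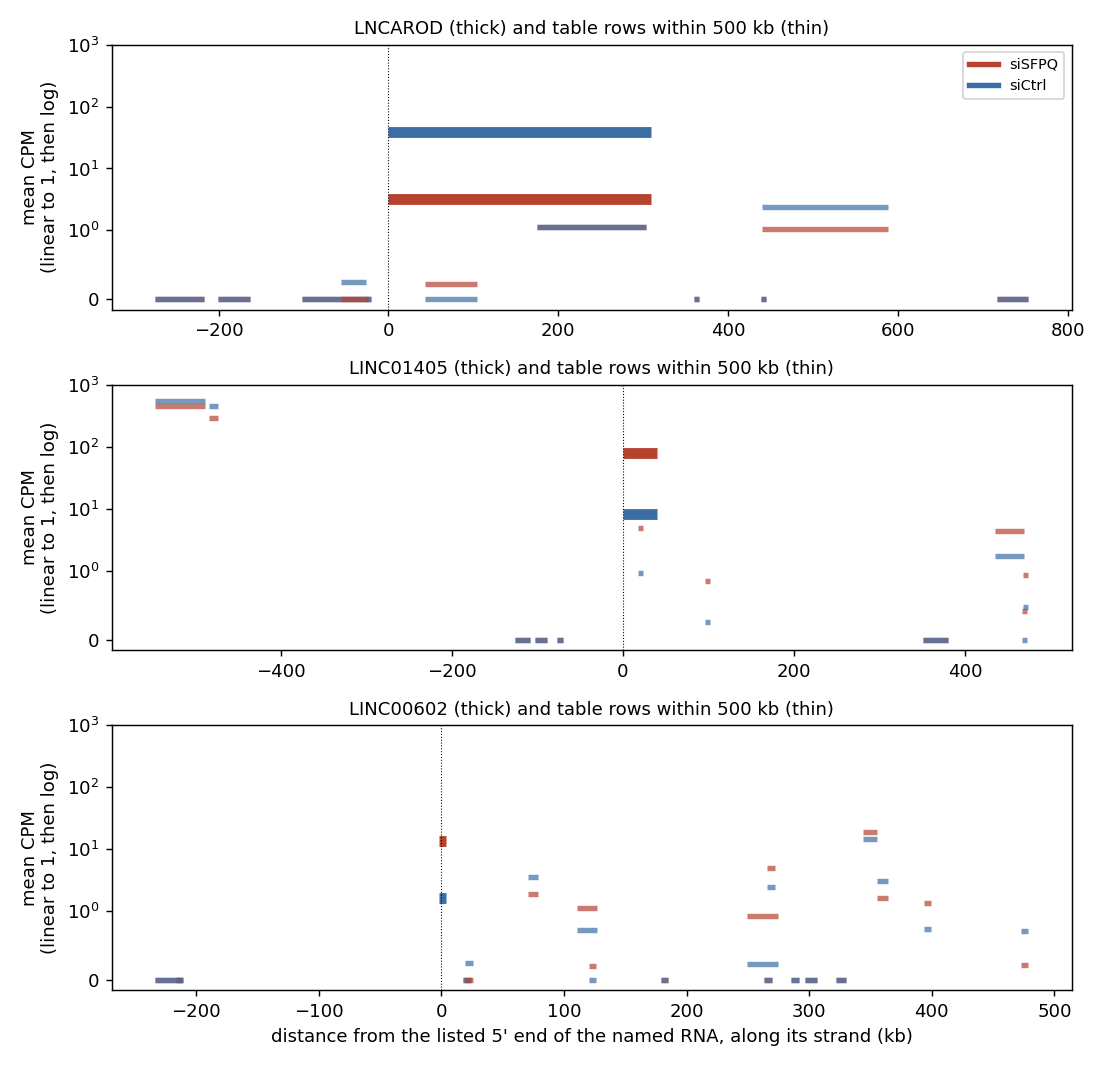
Mean CPM in siSFPQ (red) and siCtrl (blue) of LNCAROD, LINC01405 and LINC00602 (thick) and of the table's genes within 500 kb (thin), against the distance in kb from the listed start of each RNA along its own strand. The vertical axis is linear up to 1 and logarithmic above, and genes too short to see are drawn wider than they are. Most neighbours lie at or near 0, and the 2 abundant ones at the left of the LINC01405 panel are lower in siSFPQ, at 294 and 455.5 CPM, than in siCtrl, at 454 and 543 CPM.

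The genes most like the 3 RNAs in profile were sought among the tested genes. Within 500 kb these numbered 0 around LNCAROD, 2 around LINC01405 and 1 around LINC00602, so the search could hardly pick a neighbour. Likeness was the root mean square difference between log2 CPM profiles over the 6 libraries, each centred on its own mean, taken over the 6319 tested genes averaging 5 CPM or more. The profiles share libraries and depth, and with 6 points any gene with a large difference between groups comes close. The nearest to LNCAROD were ENSG00000297167 on chromosome 20, ENSG00000303304 over the acute-phase gene SAA1 and ENSG00000272157 over the neurofilament gene NEFL, at 0.422, 0.496 and 0.516 log2 units. ENSG00000297167 had 3.05, 6.85 and 5.17 CPM in siSFPQ, against 55.7, 33.3 and 45.6 CPM in siCtrl. ENSG00000272157 was the most abundant of the 3, with 126 ± 7.73 CPM in siSFPQ and 568 ± 45.5 CPM in siCtrl (SD, n = 3).

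The nearest to LINC01405 were ENSG00000303816 over BICD2, ENSG00000287296 over the immediate early gene IER2 and ENSG00000261845 over FOXK2, at 0.376, 0.386 and 0.395 log2 units. ENSG00000261845 was the most abundant of these, with 93.1 ± 9.03 CPM in siSFPQ and 16.4 ± 3.70 CPM in siCtrl (SD, n = 3). The nearest to LINC00602 were ENSG00000300428 on chromosome 9, ENSG00000302960 over the stress-induced pseudokinase gene TRIB3 and ENSG00000259536 over CCDC32, at 0.268, 0.294 and 0.315 log2 units. ENSG00000300428 had 17.6, 15.6 and 15.5 CPM in siSFPQ, against 2.85, 2.72 and 1.5 CPM in siCtrl. It lies 47.7 kb from ENSG00000303816, so the nearest gene to LINC01405 and the nearest to LINC00602 were neighbours of each other on chromosome 9. None of the 9 lay on the chromosome of the RNA it resembled, and nothing about the loci is read from it, since so few neighbours were tested. Among the 9, ENSG00000300428, ENSG00000287296 and ENSG00000302960 passed the filter only through their siSFPQ libraries. ENSG00000303816, with 2.14, 2.72 and 7.48 CPM in siCtrl, also passed mainly through siSFPQ. ENSG00000297167, with 3.05, 6.85 and 5.17 CPM in siSFPQ, passed mainly through siCtrl.

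**Figure D4:**
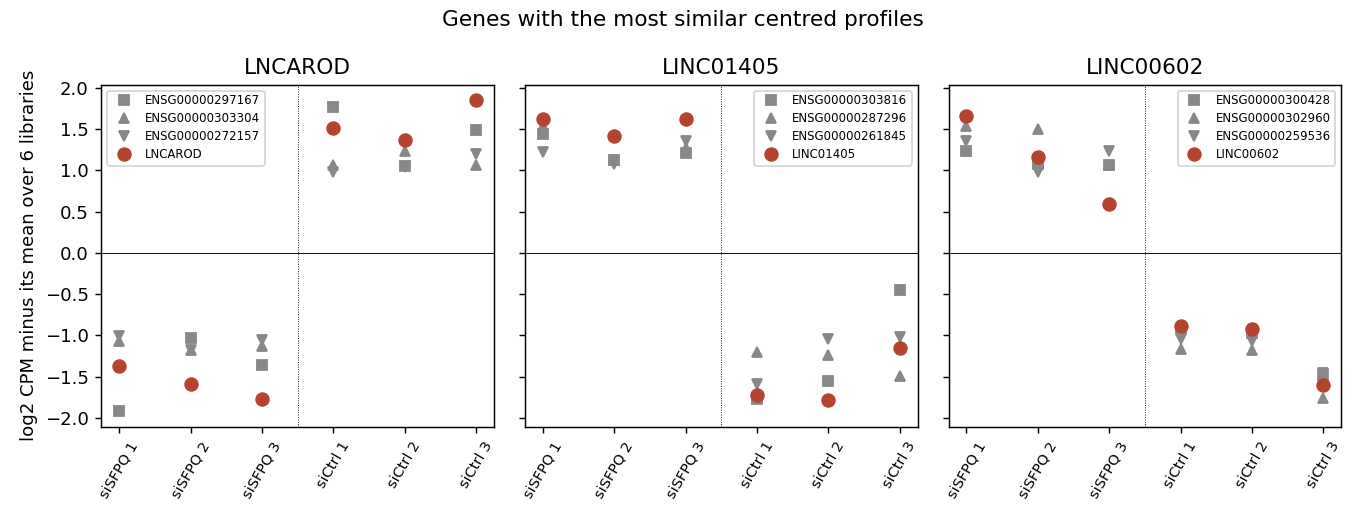
Log2 CPM minus its mean over the 6 libraries, for LNCAROD, LINC01405 and LINC00602 (red) and the 3 tested genes with the most similar profile to each (grey symbols), in the 3 siSFPQ libraries (left of the dotted line) and the 3 siCtrl libraries (right). All 12 genes drawn lie on one side of 0 in siSFPQ and on the other in siCtrl, which follows from how they were chosen. LINC00602 falls away from its 3 nearest genes in siSFPQ replicate 3.

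Non-coding genes linked by name to the surroundings of LNCAROD and LINC01405 gave calls in both directions. Of 10 genes named after catenins or members of the Wnt pathway, on which the LNCAROD neighbour DKK1 acts, 3 were tested. The 10 include CTNNA1-AS1 and CTNNA2-AS1, named after alpha-catenins rather than Wnt pathway members, and neither was tested. ZNRF3-AS1, at the gene of a ubiquitin ligase that removes Wnt receptors, had 11.2 ± 1.17 CPM in siSFPQ, against 4.52 ± 0.460 CPM in siCtrl (SD, n = 3; log2 fold change 1.30, edgeR, adjusted p = 0.0016). It passed the filter only through its siSFPQ libraries, so a call of this gene as higher is no support for a change. WNT5A-AS1, at the gene of a Wnt ligand, fell to 7.66 ± 0.664 CPM in siSFPQ, against 15.2 ± 2.24 CPM in siCtrl (-0.99, edgeR, adjusted p = 0.0035). LEF1-AS1, at the gene of a Wnt transcription factor, was not called, at 20.2 ± 1.05 CPM in siSFPQ and 19.4 ± 2.84 CPM in siCtrl (0.05, edgeR, adjusted p = 0.87). Neither ZNRF3-AS1 nor WNT5A-AS1 was called by DESeq2. The 3 genes, of which 1 was called higher and 1 lower, cannot be set apart from the 24.5% higher and 24.0% lower of all tested genes. The median of the 3 was 0.05, beside 0.01 over all tested genes.

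Of 20 names of muscle and heart long non-coding RNAs, set beside LINC01405 for its place next to MYL2, 13 were in the table and 6 were tested. Of the 6, 4 fell, 1 rose and 1 was not called, where 24.0% of all tested genes were called lower and 24.5% higher. Their median log2 fold change was -0.49, beside 0.01 over all tested genes, and so few genes show nothing particular to the list. MIAT, a nuclear RNA first tied to myocardial infarction, fell to 197 ± 21.0 CPM in siSFPQ, against 533 ± 27.0 CPM in siCtrl (SD, n = 3; -1.43, edgeR, adjusted p = 5.1e-91). MYLK-AS1, over the myosin light chain kinase gene MYLK, fell by 0.43 on the log2 scale and MYOSLID, described in smooth muscle, by 0.55. MYHAS, which runs through the fast myosin heavy chain genes, rose by 0.38, and for these 3 the edgeR adjusted p was at most 4.9e-07. MYLK-AS1, MYOSLID, MYHAS, LEF1-AS1 and LINC00881 run over exons of coding genes. The fourth that fell was H19, at -1.79 (edgeR, adjusted p = 1.4e-49), and LINC00881 was not called, at -0.39 (edgeR, adjusted p = 0.059); both are named because the count is small and after their values were seen. The muscle markers LINCMD1 and CARMN had 3 and 8 counts in all 6 libraries, and their summed level was 1.25 to 2.29 CPM in siSFPQ and 0 to 2.04 CPM in siCtrl.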

How the data were processed

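Poly(A)-selected, stranded libraries, per the labels' protocols, were grouped by their titles as 3 siSFPQ and 3 siCtrl. The authors deposited 1 table of whole-number counts for each gene and library, not normalised. The authors' table also gives each gene's position and a listed exonic length in bases, and 0 columns of per-sample values were left unused. Aligner, counting program, strand setting, annotation and build: not given in the sources used here. Among 13886 gene identifiers shared with GENCODE release 29, 13886 lay on the same chromosome and 13874 overlapped in position, so coordinates are read as GRCh38.

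Genes were filtered with filterByExpr, which left 6325; 14030 had no count and 14681 more too few. Counts were scaled by TMM and tested with edgeR 4.0.16 in R 4.3.3 (robust quasi-likelihood fit, group as the sole term, two-sided, Benjamini-Hochberg adjustment over all tested genes at 0.05), on a fit first tested on simulated counts. Log2 CPM profiles used a prior count of 2. Ratios of pooled counts have exact conditional binomial intervals and pooled levels exact Poisson intervals, at 95%, covering counting error only. Neighbours were genes whose listed span lies at most 500 kb away. Exons and stretches of 30 bases came from GENCODE release 29 and promoters from RefSeq (GRCh38.p14), where 2 of the 3 RNAs had entries.

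Genes named were the 3 RNAs, all neighbours past the filter, the next LINC-named changes, the 3 most similar genes to each RNA and up to 4 most abundant tested genes of each list. Neighbours with at least 10 counts below the filter, genes within PDE10A and the remaining genes of a short list were named after their values were seen. The RNAs and lists were chosen with earlier results of these data known. Alternatives were RLE, upper-quartile and plain scaling, no filter, and a filter looser than the main one (3 libraries at 1 CPM or more), which left 11651 genes. Others were limma-voom (limma 3.58.1), DESeq2 1.42.0, a replicate block, each library left out, and windows of 250 and 1000 kb. Within each group every pair of libraries differed by more than sampling noise (chi-square over degrees of freedom from 1.24 to 1.40, largest p 1.9e-37), and none was treated as a duplicate.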

Additional observations from a re-analysis of the deposited data

How the results depend on the processing

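Over all alternatives the log2 fold change stayed between -3.73 and -3.47 for LNCAROD, between 3.12 and 3.51 for LINC01405 and between 2.60 and 3.18 for LINC00602, and leaving out 1 library gave each of these extremes. Replicate numbers did not pair the samples, with correlations of deviations of -0.005, 0.001 and 0.010, and the replicate block gave 2.97 for LINC00602 and 3050 called genes. Genes within 500 kb called higher numbered 1 with no filter and with the looser filter (LINC01404 in both). LINC01404 passed the looser filter only through its siSFPQ libraries, so that call is no support for a change. Within 1000 kb, 1 gene was called higher in the main fit, and it was MAPKAPK5-AS1. Those called lower numbered 0 within 250 kb, where no gene was tested. Among all genes, 3063 were called, but 1762 by DESeq2 and 774 with a log2 fold of at least 1, the last chosen after the data were examined; the cause of the DESeq2 difference was not tested. Wnt-locus genes called higher numbered 2 with no filter and with the looser filter and 0 with DESeq2. DESeq2 also called 0 lower, though at an unadjusted p under 0.05 it gave 1 higher and 1 lower. In all, 179 of 189 values were unchanged in direction and call or within 1.5 times, and 0 reversed. Low counts limit LINC00602 in siCtrl, LNCAROD in siSFPQ and nearly all neighbours.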
